A study of Mus musculus with 14 samples.

Results

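The genes that write, copy and remove DNA methylation were followed in 7 deposited lists of H3K4me3 peaks from mouse hematopoietic stem and progenitor cells. The members are 9 genes chosen by name, not by a filter on their values: Dnmt1, Uhrf1, Dnmt3a, Dnmt3b, Tet1, Tet2, Tet3, Idh1 and Idh2. The choice was made with earlier results of these data known. These genes are 9 of 21437 protein-coding genes with a known start. They hold 15 of the 14659 regions formed by merging the peaks of all lists. Of these 15 regions, 12 lie within 1 kb of an annotated start and 3 lie elsewhere in a gene body. The cells were LSK cells, lineage-negative bone marrow cells with Sca1 and cKit on their surface, sorted from male C57BL/6J mice. HFD-LSK cells came from mice kept on a high-fat diet for several months from a young age (3 lists), and LFD-LSK cells came from mice on a matched low-fat control diet (4 lists). H3K4me3 was mapped by CUT&Tag per the paper's methods, while the sample titles name CUT&RUN. In CUT&Tag an antibody directs a transposase to chromatin that carries the mark. The authors deposited 1 list of MACS2 peaks per library. The 7 IgG control libraries were not analysed here. The labels do not say whether the replicates are separate mice or pools, so p-values measure the spread between these lists, which may be technical. In a bulk sample, fewer cells with the mark and less mark per cell cannot be told apart.

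DNA methylation in mammals sits mostly on the cytosine of CpG dinucleotides. Dnmt3a and Dnmt3b place it on unmethylated DNA, and Uhrf1 recruits Dnmt1 to copy it to the new strand after replication. The Tet enzymes oxidise 5-methylcytosine, which opens the way to its removal, and they need 2-oxoglutarate, a product of the isocitrate dehydrogenases Idh1 and Idh2. In blood, mutations of DNMT3A and TET2 are the most frequent drivers of clonal hematopoiesis, the expansion of mutated stem cell clones, and IDH1 and IDH2 mutations yield 2-hydroxyglutarate, which inhibits TET enzymes. H3K4me3 marks active and poised promoters, above all those rich in CpG, and it hinders the binding of the Dnmt3 enzymes to the histone tail.

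The DNA just before the starts differed widely in CpG content, which is shown for the 4 clonal hematopoiesis genes (Dnmt3a, Tet2, Idh1 and Idh2) and for a start of Dnmt1 that no list marked. Each line gives the 250 bases upstream of a start in GRCm38.p6, from RefSeq, 5′ to 3′ along the gene, with CpG dinucleotides in capitals.
Dnmt1, start with no peak, chr9:20959889-20960138, minus strand: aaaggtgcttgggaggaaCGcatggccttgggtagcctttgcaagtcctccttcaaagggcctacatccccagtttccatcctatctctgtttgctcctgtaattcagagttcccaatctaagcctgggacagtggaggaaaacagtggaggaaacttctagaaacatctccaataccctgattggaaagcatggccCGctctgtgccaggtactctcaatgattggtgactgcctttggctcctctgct
Dnmt1, start at the edge of the peak, chr9:20952980-20953229, minus strand: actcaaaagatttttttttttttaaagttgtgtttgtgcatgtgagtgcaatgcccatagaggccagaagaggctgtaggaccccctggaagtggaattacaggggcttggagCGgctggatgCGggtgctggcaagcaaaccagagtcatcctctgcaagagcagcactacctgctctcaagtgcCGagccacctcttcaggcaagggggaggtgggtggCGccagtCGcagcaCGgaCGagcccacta
Dnmt3a, upstream start, chr12:3806730-3806979, plus strand: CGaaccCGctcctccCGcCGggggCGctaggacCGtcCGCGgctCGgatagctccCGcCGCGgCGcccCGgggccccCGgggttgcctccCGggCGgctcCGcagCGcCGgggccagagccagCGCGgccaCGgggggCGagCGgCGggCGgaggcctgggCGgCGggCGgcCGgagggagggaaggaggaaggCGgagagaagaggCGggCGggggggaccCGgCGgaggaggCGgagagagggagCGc
Dnmt3a, inner start, chr12:3891494-3891743, plus strand: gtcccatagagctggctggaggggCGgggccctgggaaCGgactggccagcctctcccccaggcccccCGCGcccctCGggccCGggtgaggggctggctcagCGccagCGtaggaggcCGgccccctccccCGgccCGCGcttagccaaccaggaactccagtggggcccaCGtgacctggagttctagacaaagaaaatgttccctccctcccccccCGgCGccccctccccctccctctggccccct
Tet2, chr3:133544391-133544640, minus strand: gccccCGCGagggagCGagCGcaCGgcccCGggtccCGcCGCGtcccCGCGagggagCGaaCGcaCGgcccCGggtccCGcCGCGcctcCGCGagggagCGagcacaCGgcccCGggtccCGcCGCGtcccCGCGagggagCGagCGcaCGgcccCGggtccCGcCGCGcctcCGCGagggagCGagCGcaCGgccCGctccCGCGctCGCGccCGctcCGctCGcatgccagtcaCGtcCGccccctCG
Idh1, upstream start, chr1:65186480-65186729, minus strand: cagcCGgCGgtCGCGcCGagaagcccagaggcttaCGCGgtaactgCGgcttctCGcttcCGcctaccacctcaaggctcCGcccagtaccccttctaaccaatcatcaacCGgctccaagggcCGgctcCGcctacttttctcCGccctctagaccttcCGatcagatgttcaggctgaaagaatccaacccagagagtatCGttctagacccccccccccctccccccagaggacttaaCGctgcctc
Idh1, inner start, chr1:65179143-65179392, minus strand: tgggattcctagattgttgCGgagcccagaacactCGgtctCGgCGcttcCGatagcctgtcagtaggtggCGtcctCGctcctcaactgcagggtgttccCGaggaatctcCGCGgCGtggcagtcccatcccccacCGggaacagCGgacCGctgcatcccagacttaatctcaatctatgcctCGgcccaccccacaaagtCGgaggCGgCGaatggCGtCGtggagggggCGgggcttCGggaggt
Idh2, chr7:80115351-80115600, minus strand: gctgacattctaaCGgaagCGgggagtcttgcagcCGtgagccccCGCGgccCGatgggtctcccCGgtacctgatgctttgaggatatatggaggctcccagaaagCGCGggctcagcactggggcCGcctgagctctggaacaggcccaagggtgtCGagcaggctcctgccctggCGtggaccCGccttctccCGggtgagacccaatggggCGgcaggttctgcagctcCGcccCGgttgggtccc
RefSeq windows of 300 bases, from 250 before a start to 50 after it, held a median of 7 CpG over 32851 windows, with quartiles of 3 and 20. The Tet2 window held 57 CpG, more than 99.8% of all windows. The upstream Dnmt3a windows held 46 and 47 CpG, more than 98.4% and 98.6% of all windows, against 18 at the inner Dnmt3a start. The Dnmt3b window held 30 CpG. The inner Tet3 window held 22, both Idh1 windows held 23, the Idh2 window held 20 and the Tet1 window held 17. Dnmt1 has 3 annotated starts, and their windows held 2, 12 and 33 CpG. Of these, only the 2-CpG start had no peak within 1 kb in any list. Dnmt3a and Idh2 each also have a start, the 5′ end of the gene record, with no region in any list, and no sequence window was at hand for these.

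The letters of 6 promoter motifs were searched on both strands of the same 300-base windows. E2F letters (TTTCGCGC, TTTGGCGC or TTTCCCGC) were found in 1.84% of all windows and, among the members, in 1 window of Dnmt1 and 1 of Uhrf1, the maintenance pair. The 2 matches of Dnmt1 began at -219 and 33 bases from the start at position 20952623, and the match of Uhrf1 began at -185 bases from the start at position 56304313. None of the 3 overlapped another E2F match or another motif searched. The other motifs searched were the GC box (GGGCGG, 35.7% of windows), the CCAAT box (CCAAT, 37.4%), the TATA box (TATAAA, 13.6%), an ETS site (CCGGAAGT, 3.89%) and a CRE (TGACGTCA, 1.79%). Of the 15 member windows, 13 held a GC box, 7 a CCAAT box and 0 a TATA box, an ETS site or a CRE. A match is a description of letters, not of binding.

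The lists held 6921 to 13094 peaks, 9186, 13094 and 11977 in HFD-LSK 1 to 3 and 7447, 10572, 10352 and 6921 in LFD-LSK 1 to 4. The deposited values give the number of fragments at each summit once a scale is inferred for each list, as described under the processing. The smallest number that gave a peak was 16, 8 and 4 fragments in HFD-LSK 1 to 3 and 21, 10, 8 and 9 in LFD-LSK 1 to 4, and weaker signal below that number gave no call. The median summit held 42, 43 and 15 fragments in HFD-LSK 1 to 3 and 48, 33, 19 and 21 in LFD-LSK 1 to 4. LFD-LSK 1 and LFD-LSK 4 gave the shortest lists. The same values give the local background at each summit, stated here as a multiple of the lowest in the list. It is computed from the fold enrichment and the fragments, so it is not a measurement apart from them. A low fold over many fragments gives a high background by construction. Its median over all peaks was 9.46 in HFD-LSK 3 and 1.00 to 1.41 in the other 6 lists, so a multiple near 9.46 is typical of HFD-LSK 3. Among markers of the sorted cells, 9 of 10 stem and progenitor genes had a region at a start and 6 were called in all 7 lists (Kit, Cd34, Gata2, Meis1, Mecom and Tal1). Ly6a, which encodes Sca1, had none in any list. T, B and myeloid markers and markers of cells outside blood had none (0 of 3, 0 of 3, 0 of 3 and 0 of 4). Of the erythroid markers, Klf1 was called in 6 lists and Hbb-bt in none.

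The DNA methylation genes were marked at their starts in nearly every list. A region at a start was called in all 7 lists for 7 of the 9 genes, against 22.6% of all protein-coding genes (54.6% had one in at least 1 list). The 2 exceptions were Dnmt3b and Tet2, each called in 6 lists and missing from LFD-LSK 1. The smallest callable summit of that list held 21 fragments and its median summit 48. LFD-LSK 4, which called both genes, had 9 and 21. Why LFD-LSK 1 lacked the calls was not tested. Dnmt3a, Tet3 and Idh1 each had 2 separate regions at starts, a feature of 2.88% of protein-coding genes. Dnmt3a and Tet1 had regions in the body away from their starts, as did 9.18% of protein-coding genes.

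Levels were compared as ranks within a list, because the fold enrichment of MACS2 (the summit over its local background) depends on each library. Rank 1 is the region with the highest fold of its list, and a region without a peak takes the middle of the ranks below the last called region. A difference is the mean rank in HFD-LSK minus that in LFD-LSK, so values below 0 lie nearer the top in HFD-LSK. It was tested by an exact two-sided permutation test over the 35 ways to divide the lists into 3 and 4, where the smallest possible p is 0.0286.

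**Figure D1:**
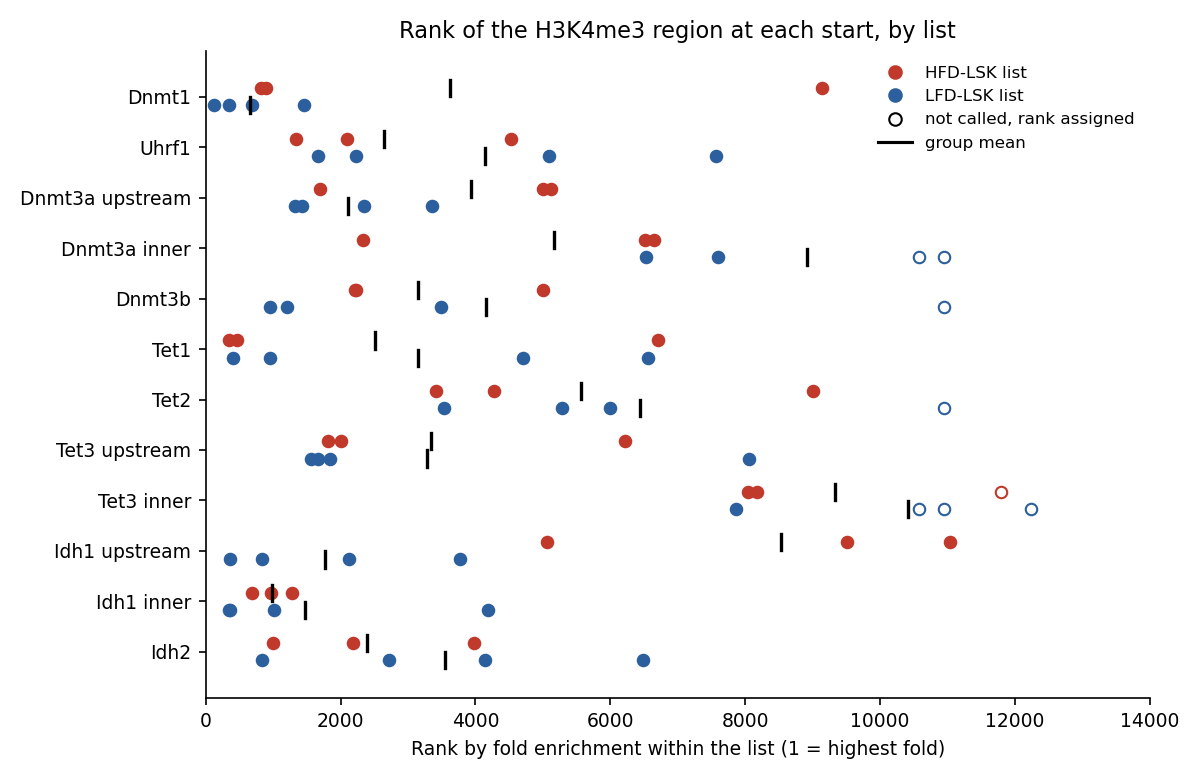
Rank by fold enrichment within each list (horizontal axis, 1 is the highest fold) for the 12 regions at starts, with HFD-LSK lists in red, LFD-LSK lists in blue, open circles for lists without a peak and black bars for group means. The groups overlap in every row except Idh1 upstream, where the 3 HFD-LSK lists (5058 to 11044) lie beyond the 4 LFD-LSK lists (356 to 3777).

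Dnmt1, the maintenance methyltransferase, had its region at chr9:20951017-20953085 (GRCm38, 2069 bp), over the 2 inner starts and not over the start at the 5′ end of the gene. Its rank was 817.5, 894 and 9145 in HFD-LSK 1 to 3 and 680.5, 348.5, 1459.5 and 126 in LFD-LSK 1 to 4. HFD-LSK 3 stood apart from the other 6 lists, and the groups overlapped. The difference was 2965 (exact permutation p = 0.143), and it was 202 without HFD-LSK 3. The summit of Dnmt1 in HFD-LSK 3 held 28 fragments, against a median of 15 for the peaks of that list, over a local background 37.8 times the lowest of the list, where the median peak of that list had 9.46 times. Ranked by summit fragments instead of fold, Dnmt1 stood at 925 in HFD-LSK 3, which left a difference of 120 (exact permutation p = 0.743).

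Uhrf1, which binds hemimethylated DNA and brings Dnmt1 to it, had 1 region at chr17:56303156-56305296 (2141 bp) that covered both of its starts. The rank was 4527, 2089 and 1339 in HFD-LSK 1 to 3 and 5094, 2230, 7564 and 1667 in LFD-LSK 1 to 4. The groups overlapped, and the difference was -1487 (exact permutation p = 0.429). Its peaks spanned 1218, 1776 and 1849 bp in HFD-LSK 1 to 3 and 401, 1363, 300 and 740 bp in LFD-LSK 1 to 4. Relative to the median peak of each list they were wider in HFD-LSK by 1.11 on the log2 scale, and the groups overlapped (exact permutation p = 0.2). In LFD-LSK 1 and LFD-LSK 3, the lists with the narrowest Uhrf1 peaks, the background at the summit was 2.66 and 5.32 times the lowest of the list. It was also 4.90 times in HFD-LSK 3, the list with the widest Uhrf1 peak.

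Dnmt3a, the de novo methyltransferase most often mutated in clonal hematopoiesis, had 4 regions, more than any other member. The region at its upstream starts, chr12:3805961-3808995, was called in all 7 lists and was 3035 bp long, longer than 91.4% of the 4233 promoter regions called in every list. Its rank was 4997, 5126 and 1693 in HFD-LSK 1 to 3 and 2355, 3359, 1324 and 1426 in LFD-LSK 1 to 4. The groups overlapped, and the difference was 1823 (exact permutation p = 0.2). The summits held 75, 76 and 25 fragments in HFD-LSK 1 to 3 and 55, 53, 28 and 26 in LFD-LSK 1 to 4. The background beneath them was 25.04, 8.86 and 9.46 times the lowest of the list in HFD-LSK 1 to 3, and 1.00, 10.5, 1.00 and 1.00 times in LFD-LSK 1 to 4. Ranked by summit fragments the difference changed sign to -625 (exact permutation p = 0.286).

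The upstream Dnmt3a peak spanned 2890, 3035 and 2717 bp in HFD-LSK 1 to 3 and 2445, 2664 and 2262 bp in LFD-LSK 1 to 3. In LFD-LSK 4 it was broken into 2 peaks of 622 and 1112 bp, with a summed width of 1734 bp. These widths are 2.53 to 3.59 times the median peak of the list. With that sum for LFD-LSK 4, every HFD-LSK width in bp exceeded every LFD-LSK width, by 604 bp on average (exact permutation p = 0.0571). Relative to the list median the groups overlapped and differed by 0.04 on the log2 scale (exact permutation p = 0.83). The summit lay 1131 to 1133 bp after the start at position 3806980 in all 3 HFD-LSK lists and in LFD-LSK 4. In LFD-LSK 1 to 3 it lay at -371, -446 and -221 bp, on the upstream side, and LFD-LSK 4 had a further peak with its summit at -279 bp. The place of the summit was not tested.

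The inner start of Dnmt3a lies 90185 bp from the 5′ end of the gene. An inner promoter of this gene is known to give the shorter Dnmt3a2 protein, which lacks the amino-terminal part. The region there, chr12:3890789-3893539 (2751 bp), was called in 5 lists, all 3 HFD-LSK lists and LFD-LSK 2 and 3 (Fisher's exact p = 0.429). Its rank was 6645, 6513 and 2326 in HFD-LSK 1 to 3 and 6524 and 7602 in LFD-LSK 2 and 3. With the 2 lists that lacked it at their assigned ranks, the difference was -3756 (exact permutation p = 0.0857), and the groups overlapped. Its summits held 12 to 36 fragments, and the 2 lists that lacked it called no summit below 21 and 9 fragments. The median summits of those 2 lists held 48 and 21 fragments. In all 5 lists with both regions, the upstream region stood nearer the top of the list and was the wider one. The body regions of Dnmt3a were at chr12:3834386-3834993, called in HFD-LSK 3 alone, and at chr12:3855759-3856511, called in HFD-LSK 2 and 3 (Fisher's exact p = 0.143). Their summits held 11 or 12 fragments.

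**Figure D2:**
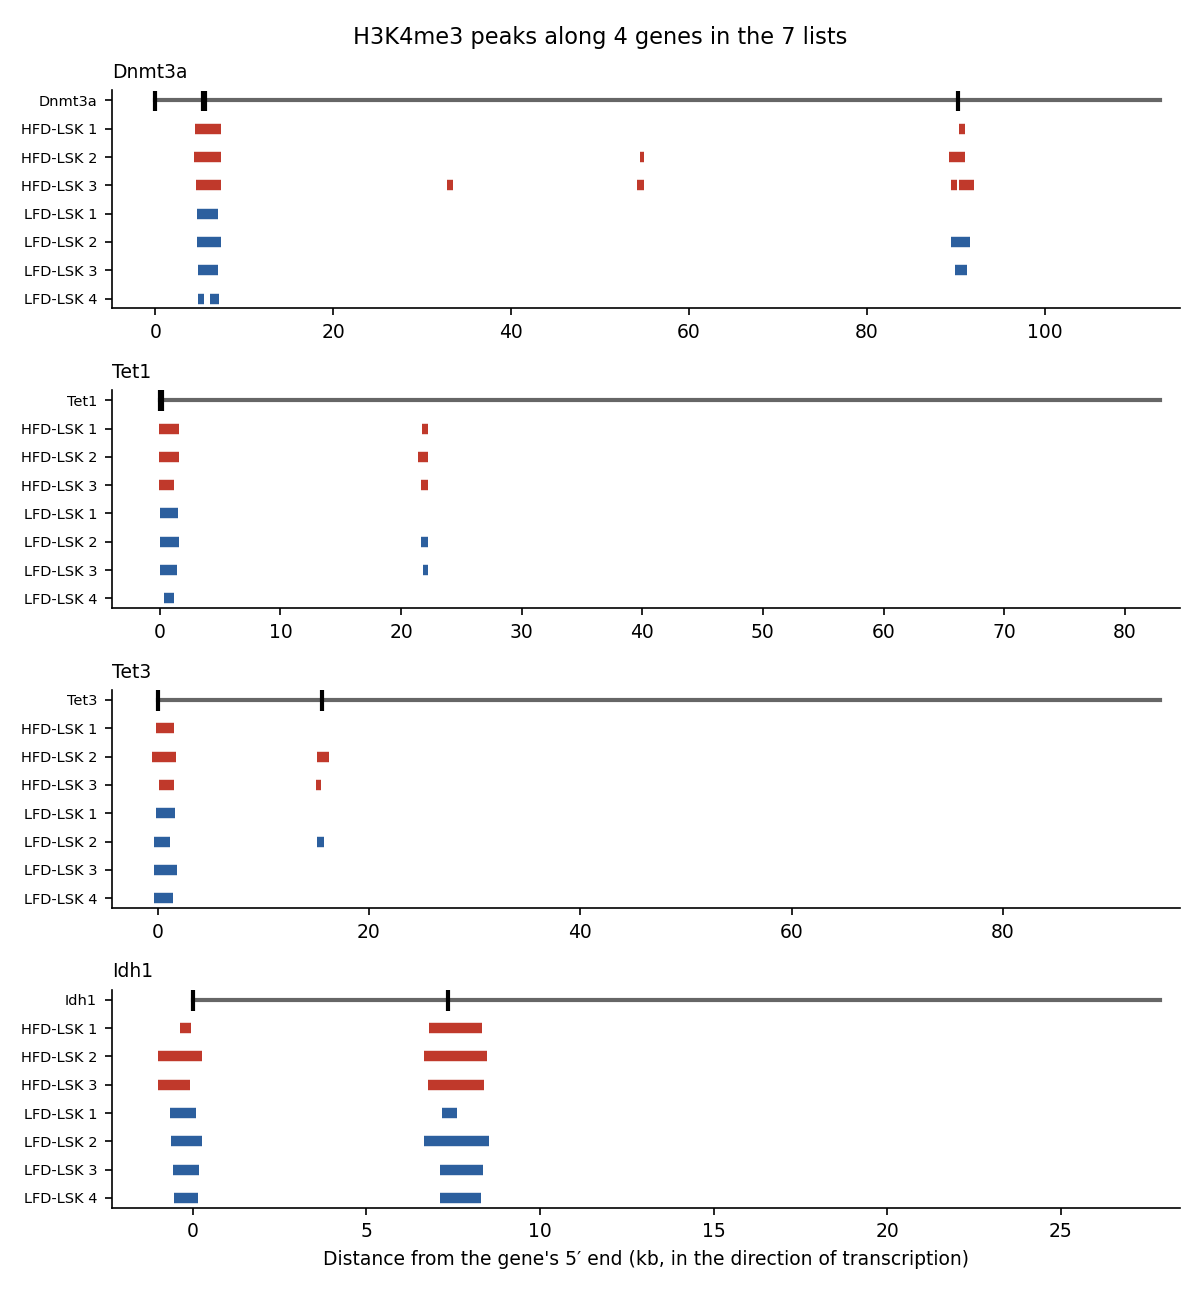
Peaks of the 7 lists (bars, HFD-LSK red and LFD-LSK blue) along Dnmt3a, Tet1, Tet3 and Idh1, drawn by distance in kb from the 5′ end of the gene, with the gene as a grey line and its annotated starts as black ticks. The upstream Dnmt3a and Tet3 starts, the Tet1 start and both Idh1 starts have a peak in all 7 lists, while the inner Dnmt3a start has one in 5 and the inner Tet3 start in 3.

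Dnmt3b, the other de novo enzyme, had its region at chr2:153648867-153651713 (2847 bp). The rank was 2225, 2212 and 5007 in HFD-LSK 1 to 3 and 3494, 948 and 1213 in LFD-LSK 2 to 4, with no peak in LFD-LSK 1. The groups overlapped with and without that list. The difference was -1005 with LFD-LSK 1 at its assigned rank (exact permutation p = 0.886) and 1263 without it. The peaks spanned 1499 to 2826 bp, 1.56 to 2.89 times the median peak of their list. The summits held 57, 60 and 25 fragments in HFD-LSK 1 to 3 and 36, 30 and 27 in LFD-LSK 2 to 4.

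Tet2, the 5-methylcytosine dioxygenase most often mutated in clonal hematopoiesis, had 1 region at chr3:133542988-133545298 (2311 bp), over the window richest in CpG among the members. Its median rank over the 7 lists was 5282, farther down than that of any other member's most often called region. The rank was 3415, 9003 and 4269 in HFD-LSK 1 to 3 and 3540, 5999 and 5282 in LFD-LSK 2 to 4, with no peak in LFD-LSK 1. The groups overlapped, and the difference was -882 (exact permutation p = 0.686), or 622 without LFD-LSK 1 and 192 without HFD-LSK 1. The summits held 45, 46 and 13 fragments in HFD-LSK 1 to 3 and 34, 18 and 15 in LFD-LSK 2 to 4. The peaks spanned 1940, 2127 and 2236 bp in HFD-LSK 1 to 3 and 2311, 1151 and 951 bp in LFD-LSK 2 to 4. In LFD-LSK 4 the 951 bp were divided over 2 peaks.

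**Figure D3:**
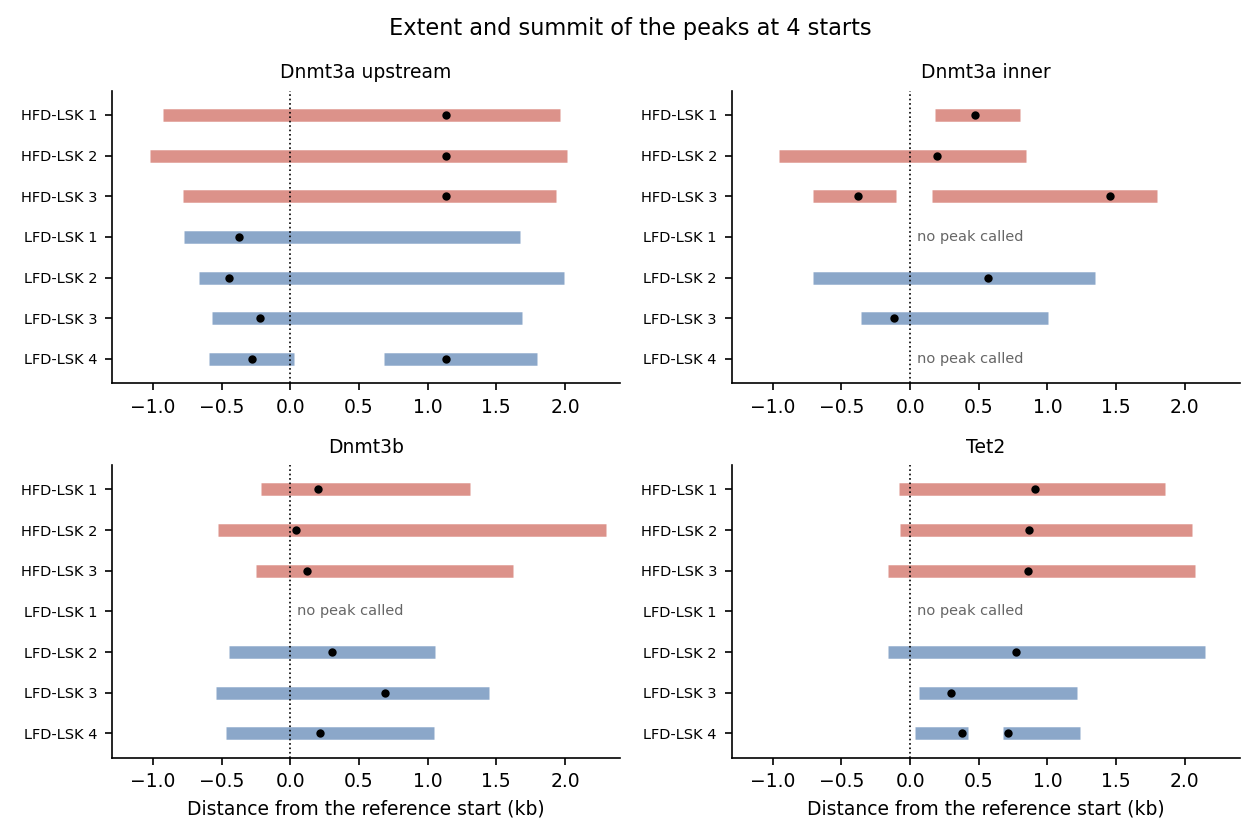
Extent (bars) and summit (dots) of each peak around the reference start of the upstream and inner Dnmt3a regions, Dnmt3b and Tet2, by distance from that start in kb along the gene, for HFD-LSK (red) and LFD-LSK (blue) lists. The upstream Dnmt3a peak spans 2262 bp or more in 6 lists and is broken in LFD-LSK 4, and LFD-LSK 1 has no peak at the inner Dnmt3a start, Dnmt3b or Tet2.

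Tet1, a further dioxygenase with a CpG-binding CXXC domain, had its region at chr10:62885873-62887528 (1656 bp). Its rank was 346.5, 458.5 and 6710 in HFD-LSK 1 to 3 and 408.5, 6558, 947.5 and 4705 in LFD-LSK 1 to 4. The 7 lists fell into 4 with Tet1 near the top and 3 with it far down, with both diets on each side. The background was 18.9, 37.2 and 21.1 times the lowest of the list in the 3 lists with low standing (HFD-LSK 3, LFD-LSK 2 and LFD-LSK 4) and 1.00 times in the other 4. Since the background is computed from fold and fragments, this match with the rank by fold is partly built in. By summit fragments Tet1 stood at 228 in LFD-LSK 2, where it held 71 fragments. The difference was -650 by fold (exact permutation p = 0.8) and 470 by fragments (exact permutation p = 0.657). A peak inside the gene, chr10:62865219-62866041, centred 21839 bp from the gene's 5′ end, was called in all 3 HFD-LSK lists and in LFD-LSK 2 and 3 (Fisher's exact p = 0.429). Its summits held 12 to 26 fragments.

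Tet3, the Tet enzyme that acts on the paternal genome of the zygote, was marked at both of its annotated starts. The upstream region, chr6:83455341-83457760 (2420 bp), had the rank 2007, 1809 and 6221 in HFD-LSK 1 to 3 and 1842, 8056, 1563 and 1667 in LFD-LSK 1 to 4. HFD-LSK 3 and LFD-LSK 2 stood far from the rest, with backgrounds 31.9 and 18.6 times the lowest of their lists. The difference was 63.3 (exact permutation p = 0.943), and it was -921 by summit fragments (exact permutation p = 0.571). The inner region, chr6:83441018-83442172 (1155 bp), also lies at a start of B230319C09Rik. It was called in HFD-LSK 2, HFD-LSK 3 and LFD-LSK 2 only, with 27, 7 and 20 fragments at the summit (Fisher's exact p = 0.486). The upstream region was the wider in each of these 3 lists.

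Idh1, the cytosolic and peroxisomal isocitrate dehydrogenase, gave the 1 member region whose ranks did not overlap between the diets. This region lies at the upstream start, chr1:65186206-65187485 (1280 bp), which Idh1 shares with Pikfyve, a lipid kinase gene read in the opposite direction. Every summit lay upstream of the Idh1 start, at -144 to -278 bp, and the peaks of HFD-LSK 1 and 3 did not reach that start. The region can therefore not be assigned to Idh1 alone, and the principal region of Idh1 is the inner one. The rank of the upstream region was 5058, 9515 and 11044 in HFD-LSK 1 to 3 and 843, 3777, 2121 and 356 in LFD-LSK 1 to 4. All 3 HFD-LSK lists lay farther from the top than all 4 LFD-LSK lists. The difference was 6765 (exact permutation p = 0.0286, the smallest possible), with an adjusted p of 0.963 by Benjamini-Hochberg over all 11639 promoter regions. That adjustment could not be passed here, since it would take 6651 regions at the smallest possible p, and 273 reached it. A random division of the lists gives a region that p with a probability of 0.0286. The 273 of 11639 regions are no larger a share, so this p does not set the region apart.

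The fragments at that summit did not separate the diets. They numbered 57, 60 and 24 in HFD-LSK 1 to 3 and 71, 33, 25 and 34 in LFD-LSK 1 to 4. The local background did separate them, at 14.1, 17.7 and 47.3 times the lowest of the list in HFD-LSK 1 to 3 and 1.00 to 1.053 times in the 4 LFD-LSK lists. That background is computed from the fold by which this region was noted, so it is no separate support. The share of all promoter regions with such a split was not counted. The HFD-LSK multiples exceeded the 90th percentile of their lists, which was 4.24, 8.86 and 28.4. Ranked by summit fragments, the region stood at 2091, 3498 and 1890 in HFD-LSK 1 to 3 and at 1012, 5177, 2657 and 499 in LFD-LSK 1 to 4. The groups then overlapped, and the difference was 157 (exact permutation p = 0.971). Peak widths of 318, 1280 and 905 bp in HFD-LSK and 679 to 883 bp in LFD-LSK overlapped as well, with a difference of -0.40 on the log2 scale relative to the list median (exact permutation p = 0.571).

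The inner Idh1 region, chr1:65177952-65179827 (1876 bp), lay 7337 bp into the gene and was called in all 7 lists. Its rank was 694.5, 962 and 1282 in HFD-LSK 1 to 3 and 4181, 348.5, 359.5 and 1011 in LFD-LSK 1 to 4. LFD-LSK 1 stood apart, with 72 fragments over a background 26.6 times the lowest of that list. The difference was -495 (exact permutation p = 0.943). The inner region stood nearer the top than the upstream one in 5 lists, all 3 HFD-LSK lists and LFD-LSK 2 and 3, and the upstream one did so in LFD-LSK 1 and 4. The inner peak was the wider in 6 of 7 lists. These orders by fold carry the backgrounds given above.

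Idh2, the mitochondrial enzyme, had its region at chr7:80114278-80115735 (1458 bp). The rank was 999, 3982 and 2187 in HFD-LSK 1 to 3 and 843, 4149, 6482 and 2718 in LFD-LSK 1 to 4. The groups overlapped, and the difference was -1159 (exact permutation p = 0.514). The summit fragments, 65, 88 and 42 in HFD-LSK and 71, 57, 32 and 32 in LFD-LSK, placed Idh2 between rank 32 and rank 1240 by fragments. By fragments the difference was -222 (exact permutation p = 0.6).

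**Figure D4:**
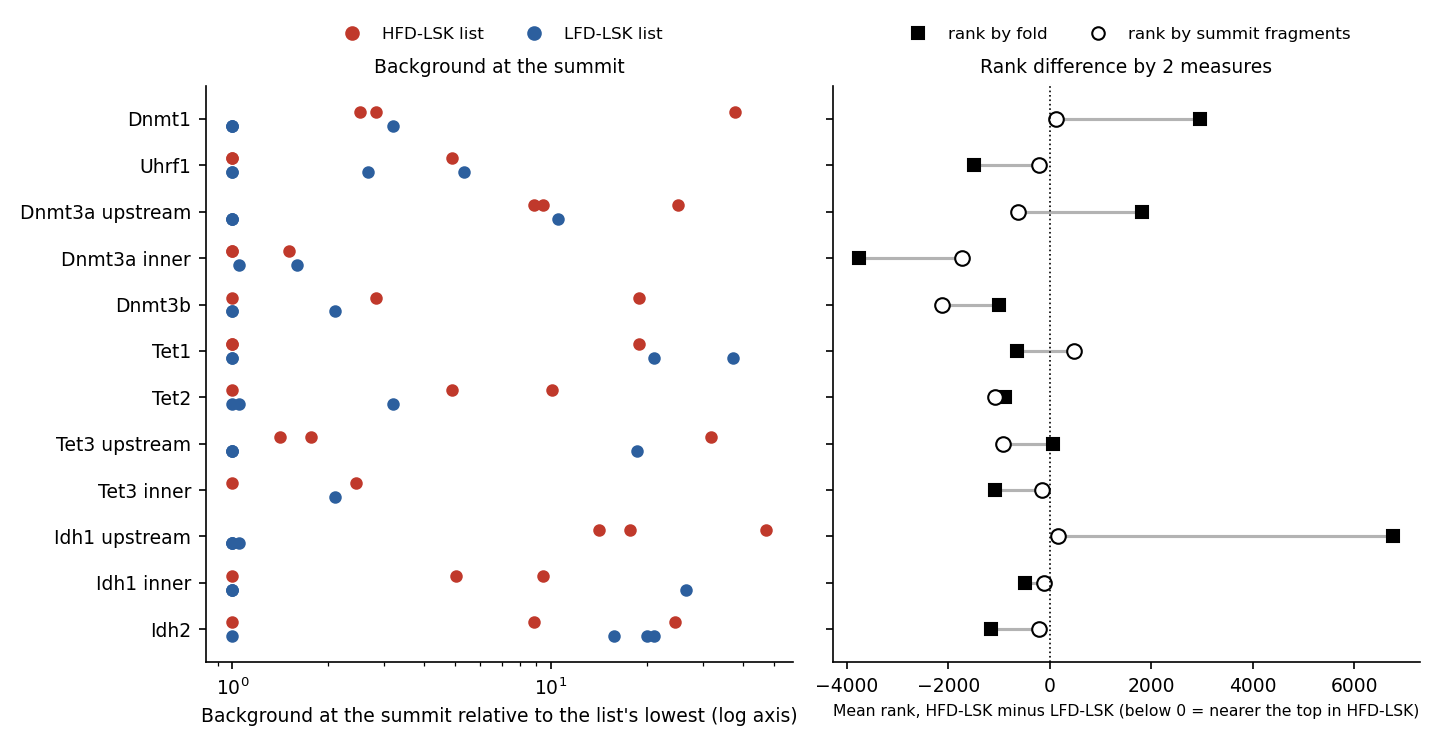
Left, local background at the summit relative to the lowest of its list (log axis) for each called region and list, HFD-LSK red and LFD-LSK blue. Right, the difference of mean rank, HFD-LSK minus LFD-LSK, by fold (squares) and by summit fragments (circles), which for Idh1 upstream is 6765 and 157.

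Over the 12 regions at starts, 8 lay nearer the top in HFD-LSK by fold and 4 lay farther from it, where 49.98% of all promoter regions lay nearer. Among the 8, Dnmt3b, Tet2, inner Dnmt3a and inner Tet3 lacked a peak in at least 1 list and took assigned ranks there. Dnmt3a, Tet3 and Idh1 count with 2 regions each. Of the principal regions of the 9 genes, defined under the processing, 6 lay nearer and 3 farther, and 0 reached p of 0.05 or less. One region, upstream Idh1, reached p of 0.05 or less and lay farther from the top, while 0 did so nearer the top. Among all 11639 promoter regions, 1.65% did so farther from the top and 0.696% nearer to it. The median difference was -766 for the members and 0.958 for all promoter regions. By summit fragments 9 lay nearer and 3 farther, and 0 of 12 reached 0.05, where 0.516% of promoter regions did so nearer the top and 1.06% farther. Of the 192 promoter regions that lay farther from the top by fold at that level, 44 also did so by fragments, 22.9% of the former and 35.8% of the 123 found by fragments.

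Width and calls gave no member past the same level. Of 8 regions called in all lists, 4 were wider in HFD-LSK relative to the list median and 4 narrower, and 0 reached 0.05. Over 4233 promoter regions, 0.803% did so wider and 1.18% narrower. The median width difference was 0.02 for the members and 0.08 for all on the log2 scale. In calls, 0 member regions reached 0.05 by Fisher's exact test, where 0.326% of promoter regions did. That test can reach 0.05 only where every list of one diet and no list of the other has the call. Of the member regions at starts, only inner Tet3 was called in few enough lists for that. The result in calls therefore says little about diet. The lowest adjusted rank p over all promoter regions was 0.963, from 273 regions at 0.05 or less, in a design that could not pass the adjustment with that number.

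**Figure D5:**
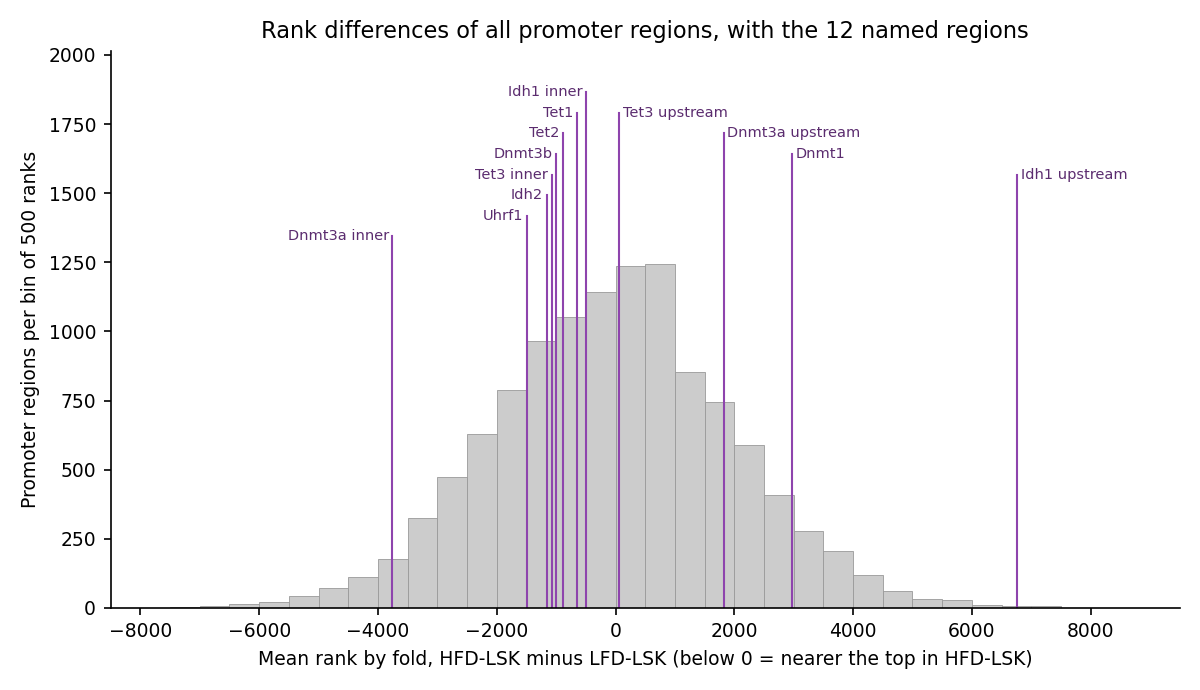
Difference of mean rank by fold, HFD-LSK minus LFD-LSK (horizontal axis), for all 11639 promoter regions in bins of 500 ranks (grey bars, number of regions), with the 12 regions at starts of the DNA methylation genes as labelled lines. From -1487 to 2965 the lines stand within the bulk of the regions, with the inner Dnmt3a start at -3756 and the upstream Idh1 start at 6765 toward the ends.

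Around these genes, 53 further genes were followed, of which 17 are other clonal hematopoiesis genes and the rest belong to DNA methylation and its metabolism. Of them 48 had a region at a start (90.6%, against 54.6% of protein-coding genes) and 27 had it called in all 7 lists (50.9%, against 22.6%). Methyl donor and 2-oxoglutarate metabolism was the group with the largest share in all lists, 9 of 11 genes called in all lists, D2hgdh, which clears 2-hydroxyglutarate, among them. All 8 methyl-CpG readers had a region, 3 of them in all lists. The partners of methylation and its maintenance had 6 of 7 genes with a region and 4 in all lists, and the partners of demethylation 7 of 10 and 3. Of the other clonal hematopoiesis genes, 16 of 17 had a region and 8 were called in all lists. Dnmt3l, the catalytically inactive partner of Dnmt3a in germ cells, Cxxc4, a CXXC protein that binds Tet2, Gadd45b, a stress-induced gene, and Cbl, a ubiquitin ligase mutated in myeloid disease, had no peak at a start in any list.

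Mat2b, the regulatory subunit of methionine adenosyltransferase, which makes the methyl donor S-adenosylmethionine, was the 1 gene at 0.05 or less by fold among the 48 with a region. That is 2.08%, near the 1.65% of all promoter regions that lay farther from the top at this level. Its rank was 2068, 2713 and 5175 in HFD-LSK 1 to 3 and 1422, 1169, 1935 and 356 in LFD-LSK 1 to 4. The groups did not overlap, and the difference was 2098 by fold and 2422 by summit fragments (exact permutation p = 0.0286 for each). By fragments Srsf2, a splicing factor gene named here after its value was seen, also lay farther from the top (1306, exact permutation p = 0.0286). By fold its groups overlapped, with a difference of 1400 (exact permutation p = 0.743). Of all promoter regions, 1.06% lay farther from the top by fragments at 0.05 or less. No gene of the 48 lay nearer the top in HFD-LSK at that level by either measure. The median difference by fold over the group was 2.83.

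Promoter regions called in all 7 lists were compared with Dnmt3a and Tet2 by the mean absolute difference of rank over the lists. Among them, those most like Dnmt3a were Rasgrp2 (517), Acsl1 with Gm31050 (561) and Zfhx3 (567), against a median of 2365. Those most like Tet2 were Lfng (1533), Smap1 (1541) and Vopp1 (1563), against a median of 3675. Tet2 had no peak in LFD-LSK 1 and took its assigned rank there, so no region compared could share that missing call. Ranks by fold carry the local background, and this likeness was not tested.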

How the data were processed

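Peak lists were assigned to diet and replicate by their labels. The members and gene lists were chosen with earlier results of these data known. Per the labels, the authors used Trim Galore, Bowtie2, Picard and MACS2 on GRCm38, while the paper's methods name GRCm39 and SEACR. The peaks match gene starts in GRCm38 (79.2% to 91.6% of peaks per list) and not in GRCm39 (7.52% to 8.32%). The authors deposited, per peak, a fold (the ratio of summit to local background), −log10 p and −log10 q, a score that is 10 times −log10 p, and the summit offset. None is a read count, so the count test of the methods could not be run. The methods set peaks against a matched IgG control in the SEACR step; the control used for the deposited MACS2 lists is not given in the sources used here.

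Overlapping or touching peaks were merged, and gene starts came from RefSeq GRCm38.p6 (98% of protein-coding genes had one), with strand alone from GENCODE by symbol where RefSeq gave no promoter. A gene's principal region is the one at a start called in most lists, with ties settled by the mean rank nearest the top. The width of a region in a list is the summed width of its peaks there, as log2 of the ratio to the list's median width. Ranks, widths and calls were tested by exact permutation or Fisher's exact test with scipy 1.17.1, in Python 3.11.15. Rank p-values were adjusted by Benjamini-Hochberg over 11639 regions. Summit fragments are the whole numbers that give both fold and p within a relative error of 5e-05, and the background follows from fold and fragments. This assumes the MACS2 formulas for fold and p and a scale per list, which the sources used here do not give. The scale taken was the largest at which the weakest peaks came from whole fragments. A whole fraction of it would multiply all counts of a list and leave their ranks unchanged. All peaks were solved (100%), against 1.06% to 12.9% with p-values shuffled among peaks. Steps were tested on simulated lists. Ranking by fragments was added after seeing the data. Named genes were all members, further genes at p of 0.05 or less or with no call, and the 3 promoters most like Dnmt3a and Tet2 among those called in all lists. A few genes of the lists are not reported here by name.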

Additional observations from a re-analysis of the deposited data

Results flagged for a closer look

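Among 20 sets of 4 LFD-LSK values tested for a list far from the other 3, 2 passed Dixon's 95% limit, and chance gives about 1 in 20. The upstream Tet3 region ranked 8056 by fold in LFD-LSK 2, against 1563 to 1842 in the other LFD-LSK lists, a gap of 0.957 of the range. Its summit there held 37 fragments over a background 18.6 times the lowest of the list, where the other 3 lists had 1.00 times. The Idh2 peak spanned 387 bp in LFD-LSK 4, against 1271 to 1335 bp in the others, a gap of 0.932 of the range. The background at that summit was 21.1 times the lowest of its list, 15.8 and 19.98 times in LFD-LSK 2 and 3, and 1.00 times in LFD-LSK 1.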

How the results depend on the processing

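Of the 9 genes, 7 were called in all lists, 4 with peaks of −log10 q of at least 5, 4 with the strongest 6921 peaks of every list, 1 where a call had to cover 50% of the region, and 7 to 9 with 1 list left out (9 without LFD-LSK 1). The 1 region past 0.05 by rank, upstream Idh1, fell to 0 when ranks were taken among regions called in all 7 lists (difference 2669, exact permutation p = 0.0571) and by summit fragments (157). Without 1 list its difference was 5514 to 8506, but 6 lists cannot give an exact p below 0.0667 or 0.1. Upstream Tet3 changed sign with an equal number of peaks (-113), ranks by −log10 p (-883), percentiles (-5.93), ranks among regions in all lists (-149), summit fragments (-921) and the replicate block (-475). Inner Tet3 did so where calls covered 50% (1183), and upstream Dnmt3a (-625) and Tet1 (470) by fragments. Of 115 such values, 103 kept direction and side of 0.05. That count holds the 12 values with a window of 3 kb around starts, a setting that cannot change a rank. All regions except upstream Idh1 were above 0.05 from the outset, so keeping that side says little. Leaving out 1 list changed the sign in 5 of 12 regions: Dnmt3b (-2042 to 1263), Tet1 (-2752 to 486), Tet2 (-2510 to 622), upstream Tet3 (-1375 to 1656) and inner Idh1 (-871 to 407). HFD-LSK and LFD-LSK lists with the same replicate number, 1 to 3, had r of deviations over 4233 regions of 0.083, 0.015 and -0.0008. Lists with different numbers had -0.092 to 0.0998, and such values cannot show whether libraries were paired. The paper's methods name batch and paired samples as covariates, while the sample titles give replicate numbers only. The replicate block gave upstream Idh1 6292 (exact permutation p = 0.25, the smallest possible). Counts past 0.05 were therefore not taken under that block or with 1 list left out. The cause of these shifts was not tested. The fewest summit fragments that gave a call ranged from 4 (HFD-LSK 3) to 21 (LFD-LSK 1), which limits what each list can show. The median summit held 15 fragments in HFD-LSK 3 and 48 in LFD-LSK 1, so these limits are not on a common scale.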
